A study of Mus musculus with 6 samples.

Results

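Interferon-stimulated and antigen presentation genes were followed in the transcriptomes of isolated lung endothelial cells (iLECs). The list holds 38 genes of the interferon response and of major histocompatibility complex (MHC) class I, named by symbol among the 24972 gene symbols of the expression table. The rule that chose them reads no value, but it was written with earlier results of these data known. All 38 were in the table. Of these, 37 were tested, having 3 or more libraries with 10 or more normalized counts, which *Mx1* did not have.

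Lungs were taken at P7 from 3 control samples with the genotype *Atp6ap2* fl/Y and from 3 samples with the genotype *Atp6ap2* fl/Y; Cdh5-CreERT2+, called iECKO here. Pups of both genotypes carried the floxed *Atp6ap2* allele and received 100 µg of tamoxifen on P1, P2 and P3, so the controls differed by the absence of Cre. The Cre transgene is driven by the promoter of *Cdh5*, the gene of VE-cadherin, so that deletion is directed to endothelial cells. Cells were captured from digested lung with beads coated with an antibody against CD31, a surface protein of endothelium that some leukocytes also carry. The labels give the strain as C57BL/6 and the study's methods a mixed background of CD1 and C57BL/6. The labels do not say whether the replicates of a genotype came from separate pups, and the study calls them biological replicates. If they did not come from separate pups, P values measure only the spread between these samples.

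Type I interferons are secreted proteins that bind a receptor of the subunits IFNAR1 and IFNAR2. The receptor activates the kinases JAK1 and TYK2, which phosphorylate STAT2. STAT2 joins with IRF9 in a complex that binds the interferon-stimulated response element (ISRE) in the promoters of its target genes, among them antiviral effectors such as the IFIT, OAS and MX proteins. Interferon gamma acts through another receptor, and it strongly induces guanylate-binding proteins, immunity-related GTPases and the machinery by which MHC class I molecules present peptides. Endothelial cells express MHC class I and respond to both kinds of interferon.

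Values are normalized counts, as scaled by the authors, which summed to between 26243878 and 28725800 per library. Fold changes are differences of log2(normalized count + 1), iECKO minus control, with standard errors (SE) and P values from limma, adjusted over all 14456 genes tested. A gene is said to have risen or fallen where its adjusted P value was below 0.05. Replicates 1, 2 and 3 of each genotype are given in that order. The level of *Atp6ap2* itself was 7490.2, 5815 and 5681 in controls and 4219.9, 2336 and 1982 in iECKO libraries, a log2 fold change of -1.22 (SE 0.26, limma adjusted P = 0.0306). That call was kept in only 1 of 6 fits with a library left out. *Xist*, a transcript of the inactive X chromosome, was between 37704 and 47487 in 4 libraries but at 31.7 in control replicate 3 and 19.3 in iECKO replicate 2, although all 6 labels give a single X chromosome. Endothelial markers summed to 333600 to 419500 in controls and 351600 to 398300 in iECKO libraries. Fibroblast markers summed to 45980 to 78100 in controls and only 18610 to 23990 in iECKO libraries, and mural and smooth muscle markers to 13750 to 20710 and 5666 to 7251.

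Of the 37 members tested, 4 fell and 0 rose in iECKO iLECs. Those that fell were *Stat2*, the partner of IRF9 in the type I interferon complex, the ubiquitin ligase *Trim25*, and the guanylate-binding proteins *Gbp2* and *Gbp7*. Converted from their log2 fold changes, the falls were 36.9% (*Stat2*), 27.5% (*Trim25*), 32.7% (*Gbp2*) and 32.7% (*Gbp7*). Of all genes tested 4.97% fell and 3.28% rose, 8.25% in all, and of the members tested 10.8% fell. An unadjusted P value below 0.05 was reached by 8 members, all of them lower in iECKO, and by 23.9% of all genes. In 11 members (29.7%) the values of the genotypes did not overlap, against 29.8% of all genes. With 3 libraries against 3, an exact permutation test of a single gene cannot go below a two-sided P value of 0.1, which these 11 reach. In 9 of these the iECKO values lay below the controls and in 2 above, against 15.0% and 14.7% of all genes. Members had a median log2 fold change of -0.14, with 23 negative and 14 positive, and all genes tested a median of 0.0049. In bulk RNA from captured cells, fewer cells of a type and less RNA per cell cannot be told apart.

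**Figure D1:**
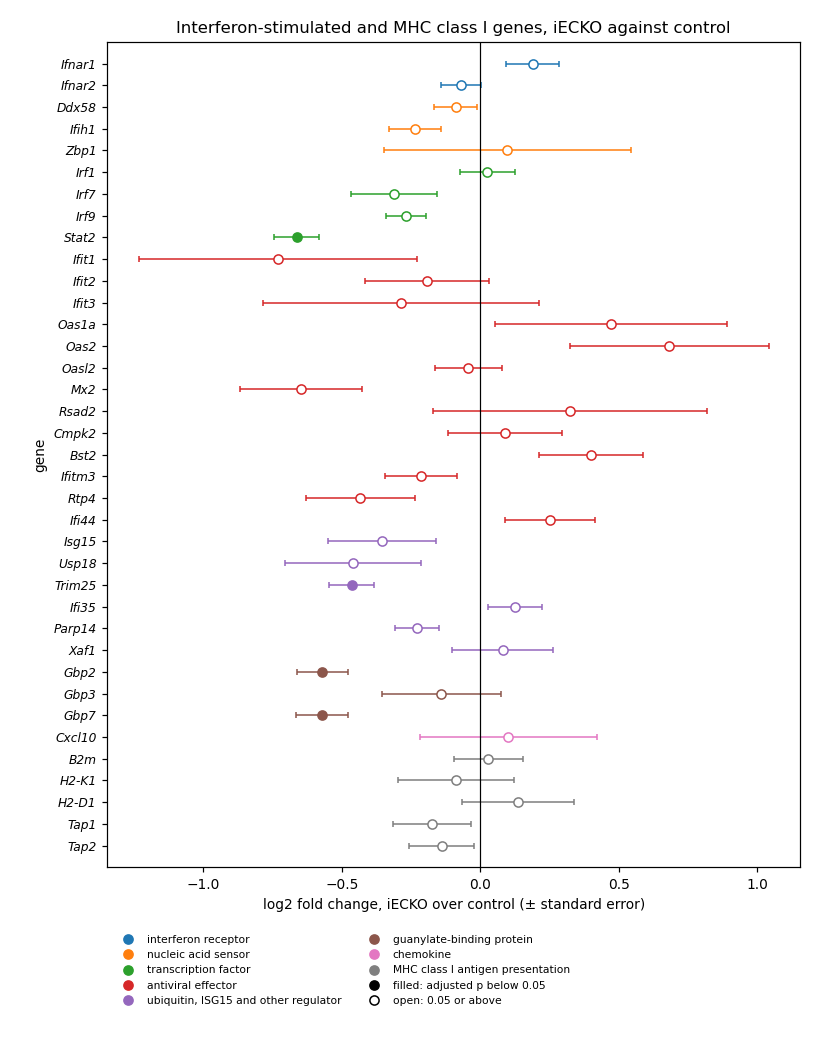
Log2 fold change of the 37 tested members, iECKO over control, with bars of ± 1 standard error from limma; rows are genes in the order of their roles and colors mark the roles. The 4 filled points, *Stat2*, *Trim25*, *Gbp2* and *Gbp7*, had an adjusted P value below 0.05 and all lie left of 0, and open points extend from -0.73 to 0.68.

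*Stat2* was at 3331, 3689.6 and 3400.4 in the control libraries, in the order of their replicate numbers, and at 2242, 2277 and 2057 in the iECKO libraries. Every iECKO library lay below every control library, and the log2 fold change of -0.66 (SE 0.081) was past the threshold (limma adjusted P = 0.00848). It is a gene of chromosome 10 (chr10:128270559-128292849, GRCm38, plus strand). Without any 1 of the 6 libraries its adjusted P value stayed between 0.00831 and 0.041. In the 4 libraries with *Xist* over 1000, 2 against 2, its log2 fold change was -0.71, with an adjusted P value of 0.125.

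*Trim25*, which attaches ubiquitin to the RNA sensor RIG-I and is also known as a ligase for ISG15, was the most abundant of the members that fell. Its normalized counts were 11439.9, 10616 and 10049 in the controls and 8013, 7657 and 7569 in iECKO libraries. Again the genotypes did not overlap (chr11:88999376-89020293, plus strand; log2 fold change -0.46, SE 0.082, limma adjusted P = 0.018). The call was lost without iECKO replicate 2 (adjusted P = 0.084) or iECKO replicate 3 (0.0838), at log2 fold changes of -0.46 and -0.45.

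*Gbp2* and *Gbp7* lie in 1 cluster of guanylate-binding protein genes on chromosome 3, with the member *Gbp3* between them. The encoded GTPases are known for binding vacuoles that hold pathogens. *Gbp2* (chr3:142620602-142638008, plus strand) had normalized counts of 1192, 1086 and 1243 in controls and 807, 753 and 808 in iECKO libraries, a log2 fold change of -0.57 (SE 0.093, limma adjusted P = 0.0145). *Gbp7* (chr3:142530342-142550149, plus strand) had 1888, 1868 and 1730.1 in controls and 1199, 1139.8 and 1359.9 in iECKO libraries, a log2 fold change of -0.57 (SE 0.094, limma adjusted P = 0.015). Neither gene had a library of 1 genotype within the range of the other.

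*Gbp3* (chr3:142560026-142573209, plus strand) was at 458, 589 and 829 in controls and 474, 608 and 579 in iECKO libraries. Those ranges overlapped, and its log2 fold change of -0.14 (SE 0.21) did not pass the test (limma adjusted P = 0.747). Whether *Gbp3* differed from its neighbors in its response was not tested. The Gbp genes are close copies of each other, so reads could be split between them, *Gbp7* shares 637 exon bases with the annotated transcript *Gm43802* on the same strand, and *Gbp2* shares 24 with *Mir6381* on the opposite strand. The library kit does not keep the strand of the RNA. *Gbp2* lost its call without control replicate 3 (adjusted P = 0.0566), iECKO replicate 2 (0.0672) or iECKO replicate 3 (0.0602), and *Gbp7* lost it without iECKO replicate 2 (0.0655). In limma without the mean-variance trend, at the same fold changes, *Stat2* kept its call (adjusted P = 0.0445), and *Trim25* (0.0637), *Gbp2* (0.0503) and *Gbp7* (0.0578) lost theirs. In the 4 libraries with *Xist* over 1000, 0 members and 1 gene of all 14456 passed the test, and the log2 fold changes of *Trim25*, *Gbp2* and *Gbp7* there were -0.50, -0.49 and -0.56.

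**Figure D2:**
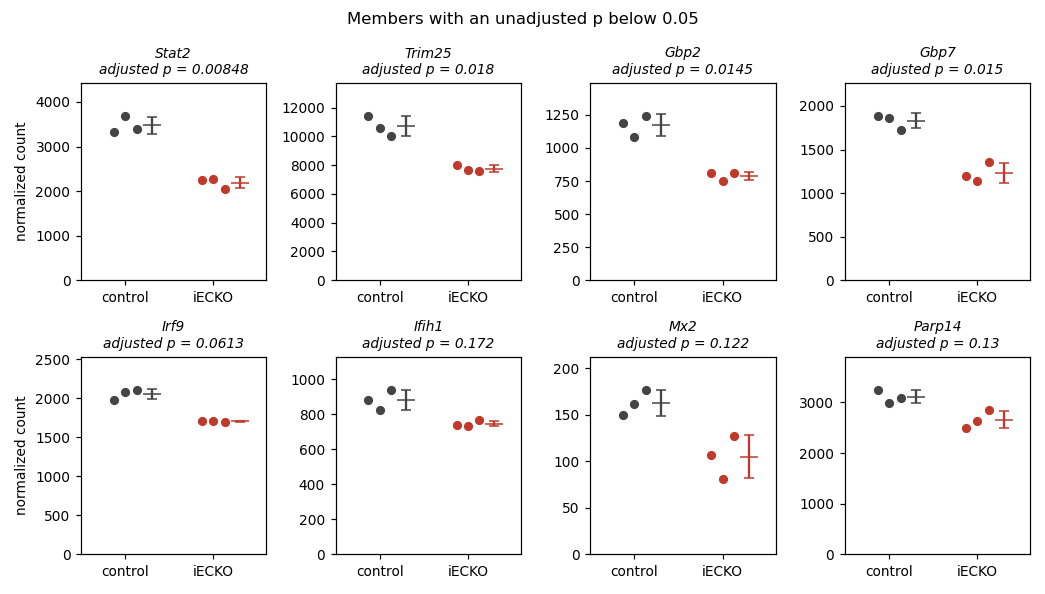
Normalized counts per library of the 8 members with an unadjusted P value below 0.05; each point is 1 library, and the bars give the mean ± SD of the 3 libraries of a genotype, on axes that start at 0. In all 8 panels the 3 iECKO libraries lie below the 3 control libraries, and only *Stat2*, *Trim25*, *Gbp2* and *Gbp7* had an adjusted P value below 0.05.

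The promoters of the members that fell are shown because an ISRE is the letter pattern that the complex of STAT2 and IRF9 is known to bind, and those of *Gbp3*, *Isg15*, *Ifit1* and *B2m* stand beside them as members that did not pass the test. Sequences are from RefSeq (GRCm38.p6), each a stretch of 100 bases on the strand of the gene, 5′ to 3′. Capitals mark each match to the ISRE-like pattern, GAAA, then any 2 bases, then GAAA, searched on both strands, so that a match on the reverse strand reads TTTC, 2 bases and TTTC. In *Trim25* the capitals mark a looser pattern without the last A, GAAANNGAA, where N is any base, and every match to the longer pattern also holds the looser one.
The stretches are *Stat2* chr10:128270248-128270347, *Gbp2* chr3:142620563-142620662, *Gbp7* chr3:142530236-142530335, *Gbp3* chr3:142559944-142560043, *Trim25* chr11:88999303-88999402, *Ifit1* chr19:34640739-34640838 and *B2m* chr2:122147487-122147586 on the plus strand, and *Isg15* chr4:156200849-156200948 on the minus strand.
Stat2: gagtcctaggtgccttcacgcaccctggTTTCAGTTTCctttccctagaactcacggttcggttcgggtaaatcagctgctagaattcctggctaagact
Gbp2: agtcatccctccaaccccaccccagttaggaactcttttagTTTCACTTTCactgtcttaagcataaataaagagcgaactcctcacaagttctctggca
Gbp7: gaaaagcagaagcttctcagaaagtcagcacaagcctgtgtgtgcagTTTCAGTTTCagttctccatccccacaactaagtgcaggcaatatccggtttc
Gbp3: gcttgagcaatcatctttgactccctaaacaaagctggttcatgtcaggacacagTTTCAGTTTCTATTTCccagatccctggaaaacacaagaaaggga
Trim25: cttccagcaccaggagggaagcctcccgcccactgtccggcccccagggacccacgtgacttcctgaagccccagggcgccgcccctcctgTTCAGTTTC
Isg15: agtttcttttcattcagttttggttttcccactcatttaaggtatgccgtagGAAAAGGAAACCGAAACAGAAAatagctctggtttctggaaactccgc
Ifit1: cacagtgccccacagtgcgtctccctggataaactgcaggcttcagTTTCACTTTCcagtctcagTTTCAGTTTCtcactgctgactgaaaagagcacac
B2m: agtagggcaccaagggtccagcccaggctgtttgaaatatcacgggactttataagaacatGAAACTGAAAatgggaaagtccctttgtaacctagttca

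Within the window of 250 bases before to 50 bases after the annotated start, *Gbp2*, *Gbp7* and *Gbp3* carried the ISRE-like pattern 50, 44 and 36 bases before the start, and *Stat2* carried it at 213 bases. In *Gbp3* a second match overlaps the first, and in *Isg15* 3 matches run into each other. The RefSeq table held a promoter for 30 of the 38 members, and the pattern was in 15 of these, against 3.99% of 27025 genes with a promoter. It was in 3 of the 4 members that fell, and in 34.3% of 134 further pathway genes with a promoter, which are described below. The members were chosen as genes of the interferon response, so a share above that of all genes was built into the choice. The looser pattern was not planned, and among the members it added only *Trim25* and *Ifi44* to those with the longer pattern. It was in 17 of the 30 members (56.7%), in all 4 that fell, in 37.3% of the further pathway genes, and in 9.76% of all genes. A pattern for the gamma-activated site, TTCNNNGAA, which reads the same on both strands, was in 9 members (30.0%) against 9.55% of all genes. Of the further pathway genes, 20.1% had it. Promoter rows were missing for *Zbp1*, *Oas2*, *Mx1*, *Mx2*, *Rtp4*, *Usp18*, *Parp14* and *Tap2*. These are matches of letters, and binding was not measured.

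The receptor subunits did not pass the test. *Ifnar1* was at 4483, 4457 and 4393 in controls and 4432, 5348 and 5495 in iECKO libraries, where replicates 2 and 3 lay above all controls and replicate 1 within them (log2 fold change 0.19, SE 0.096, limma adjusted P = 0.278). *Ifnar2* was at 2312, 2258 and 2159 against 2169, 2155 and 2087, and these ranges overlapped (log2 fold change -0.07, SE 0.073, limma adjusted P = 0.619). *Ifnar2* shares 315 exon bases with *Gm21970* on the same strand.

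The cytosolic sensors of foreign RNA and DNA did not pass the test either. *Ifih1*, which encodes MDA5, a sensor of long double-stranded RNA, was at 881, 825 and 941 in controls and 741, 735 and 766 in iECKO libraries. Its genotypes did not overlap, with a log2 fold change of -0.24 (SE 0.094) and a limma adjusted P value of 0.172. *Ddx58*, which encodes RIG-I, had an overlap and a log2 fold change of -0.09, and *Zbp1*, a sensor of Z-form nucleic acid, was under 51 in every library, with a log2 fold change of 0.10 (SE 0.45).

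Of the 4 transcription factors 1 passed the test, *Stat2*, described above, and 3 (*Stat2*, *Irf9* and *Irf7*) had all iECKO libraries below all control libraries, as 15.0% of all genes did. *Irf9*, the DNA-binding partner of STAT2, was at 1981, 2076 and 2109 in controls and 1705, 1713 and 1696 in iECKO libraries. The iECKO values lay close together and below all controls, but the log2 fold change of -0.27 (SE 0.073) did not pass the test (limma adjusted P = 0.0613). *Irf7*, which drives interferon genes after a first round of signaling, was at 274, 307 and 344 in controls and 260.1, 218 and 266 in iECKO libraries (log2 fold change -0.31, SE 0.16, limma adjusted P = 0.272). *Irf7* shares 45 exon bases with *Phrf1* on the opposite strand, and *Irf9* shares 123 with *Rnf31* on the same strand. *Irf1*, the main factor downstream of interferon gamma in this list, was between 11024 and 13344 in all 6 libraries and had a log2 fold change of 0.03 (SE 0.098, limma adjusted P = 0.906).

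Of 14 antiviral effectors, 13 were tested and 0 passed (1, *Mx2*, at an unadjusted P value below 0.05), with 7 log2 fold changes negative and 6 positive. *Mx2*, an interferon-induced dynamin-like GTPase, was at 149.6, 161 and 177 in controls and at 107, 81.0 and 127 in iECKO libraries, without overlap (log2 fold change -0.65, SE 0.22, limma adjusted P = 0.122). *Oas2*, which makes the oligoadenylates that activate RNase L, lay in the other direction without overlap, at 25.5, 16.3 and 18.2 in controls and 29.8, 27.0 and 41.2 in iECKO libraries (log2 fold change 0.68, SE 0.36, limma adjusted P = 0.297). Both are of low abundance, and neither passed the test. *Mx1* stayed under 10 in 5 libraries and reached 18.3 in iECKO replicate 3.

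The most variable members within genotypes were also of low abundance. *Rsad2*, which encodes the antiviral enzyme viperin, was at 52.0, 162 and 157 in controls and 87.7, 136 and 219 in iECKO libraries. *Ifit3* was at 37.7, 73.6 and 168 in controls and 50.9, 69.2 and 72.8 in iECKO libraries. *Ifit1* was at 29.5, 40.0 and 67.9 against 22.9, 14.9 and 48.4, so that its log2 fold change of -0.73 had an SE of 0.50 and a limma adjusted P value of 0.43. The IFIT proteins bind viral RNA that lacks host cap marks. In all 3 genes the SD of the controls exceeded the difference between the genotype means. *Rsad2* and *Ifit3* had log2 fold changes of 0.32 and -0.29, whose sign turned when single libraries were left out.

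*Bst2*, which encodes the surface protein tetherin, had a log2 fold change of 0.40 (SE 0.19, limma adjusted P = 0.245) and is given in full by choice after its values were seen. It was at 1376, 951 and 1059 in controls and 1896, 1342 and 1252 in iECKO libraries, so that control replicate 1 lay above iECKO replicates 2 and 3. In limma with the replicate number as a covariate, *Bst2* was called higher (adjusted P = 0.0434), but the numbers were not taken as pairs. *Ifitm3*, a membrane protein that blocks the entry of viruses, was at 7195, 5822 and 6285 against 6469.9, 5458 and 4777 and overlapped (log2 fold change -0.21, SE 0.13, limma adjusted P = 0.366). The other effectors tested, which were *Ifit2*, *Oas1a*, *Oasl2*, *Cmpk2*, *Rtp4* and *Ifi44*, overlapped between genotypes at log2 fold changes from -0.43 (*Rtp4*) to 0.47 (*Oas1a*).

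Of the 6 ubiquitin, ISG15 and other regulators, *Trim25* fell and 5 did not pass. *Isg15*, the ubiquitin-like modifier, was at 189, 238 and 265 in controls and 186, 151 and 202 in iECKO libraries, with an overlap (log2 fold change -0.36, SE 0.20, limma adjusted P = 0.32). Its protease *Usp18*, which also dampens signaling at IFNAR2, had a log2 fold change of -0.46 (SE 0.25, limma adjusted P = 0.309) with an overlap as well. *Parp14*, a mono-ADP-ribosyltransferase, was at 3253, 2999 and 3092 in controls and 2502, 2634 and 2842 in iECKO libraries, without overlap (log2 fold change -0.23, SE 0.081, limma adjusted P = 0.13). *Ifi35* was without overlap in the other direction, at 565, 571 and 601 against 617, 658 and 619.6 (log2 fold change 0.13, SE 0.097, limma adjusted P = 0.489), and it shares 290 exon bases with *Gm11626* on the opposite strand. *Xaf1* had a log2 fold change of 0.08, and the chemokine *Cxcl10*, which attracts activated T cells, had 0.10 (SE 0.32).

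The 5 MHC class I genes showed no difference that passed the test, and 0 had an unadjusted P value below 0.05. *B2m*, the light chain shared by all class I molecules, was at 22371, 26055 and 28437 in controls and 26516, 23408 and 28316 in iECKO libraries (log2 fold change 0.03, SE 0.12, limma adjusted P = 0.918). The heavy chain *H2-K1* was at 11013, 14914 and 18776 in controls and 11571, 13089.9 and 17010.4 in iECKO libraries (log2 fold change -0.09, SE 0.21, limma adjusted P = 0.846). In both genotypes the replicates of *H2-K1* spread over more than the difference between the genotype means. The heavy chain *H2-D1* was at 32145, 35658 and 44467 in controls and at 53702, 32278 and 39000.5 in iECKO libraries, where replicate 1 was the highest of all 6 (log2 fold change 0.14, SE 0.20, limma adjusted P = 0.742).

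*Tap1* and *Tap2* encode the transporter that carries peptides into the endoplasmic reticulum for loading. *Tap1* was at 1913, 2532 and 2492 in controls and 2244, 1739 and 2146 in iECKO libraries (log2 fold change -0.18, SE 0.14, limma adjusted P = 0.502). *Tap2* was at 2308, 2167 and 2604 against 2402, 1856 and 2183 (log2 fold change -0.14, SE 0.12, limma adjusted P = 0.521). Both sets of ranges overlapped. *Tap2* shares 698 exon bases, summed over *Gm20496* and *Gm15821* on the opposite strand, and *Tap1* shares 212 with *Psmb9*, also opposite. Other members that share exon bases with another annotated gene are *Rtp4* (296), *Irf1* (135), *Cxcl10* (133), *Usp18* (124) and *Parp14* (110). The sign of the small differences in *B2m*, *H2-K1* and *H2-D1* turned when single libraries were left out. Class I heavy chain genes are close copies of each other, and counting could split their reads.

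Per kilobase of exon, mean levels over the 6 libraries were highest for *B2m* (30060 normalized counts per kb), *H2-D1* (15330) and *Ifitm3* (8852), and then for *H2-K1* (4900), *Irf1* (2996) and *Trim25* (1603). *Stat2* lay at 586 per kb in controls and 370 per kb in iECKO libraries, *Gbp2* at 467 and 314, and *Gbp7* at 326 and 220. *Ifit1* and *Oas2*, in contrast, were at 14.0 and 5.91 per kb over all libraries. The highest levels were those of the class I light and heavy chains and of *Ifitm3*, and of the members that fell only *Trim25* was among the 6 highest.

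The order of the libraries within a genotype is given for the members beside all genes, without a test, since genes that vary together are not independent. Among the 3 controls, replicate 1 was the lowest in 23 of 37 members (62.2%, against 38.9% of all genes) and replicate 3 the highest in 20 (54.1%, against 32.7%). Among the 3 iECKO libraries, replicate 3 was the highest in 22 members (59.5%, against 31.6%) and replicate 2 the lowest in 18 (48.6%, against 27.3%). The median log2 ratio of the members to their control mean was -0.16, -0.01 and 0.12 in the controls and -0.24, -0.20 and -0.03 in the iECKO libraries. These medians spread as widely within each genotype as between the genotypes, and iECKO replicate 3 lay between the controls. None of the members that fell followed this order fully among the controls. *Trim25* and *Gbp7* were highest in control replicate 1, *Stat2* was highest in control replicate 2, and *Gbp2* was lowest in control replicate 2.

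**Figure D3:**
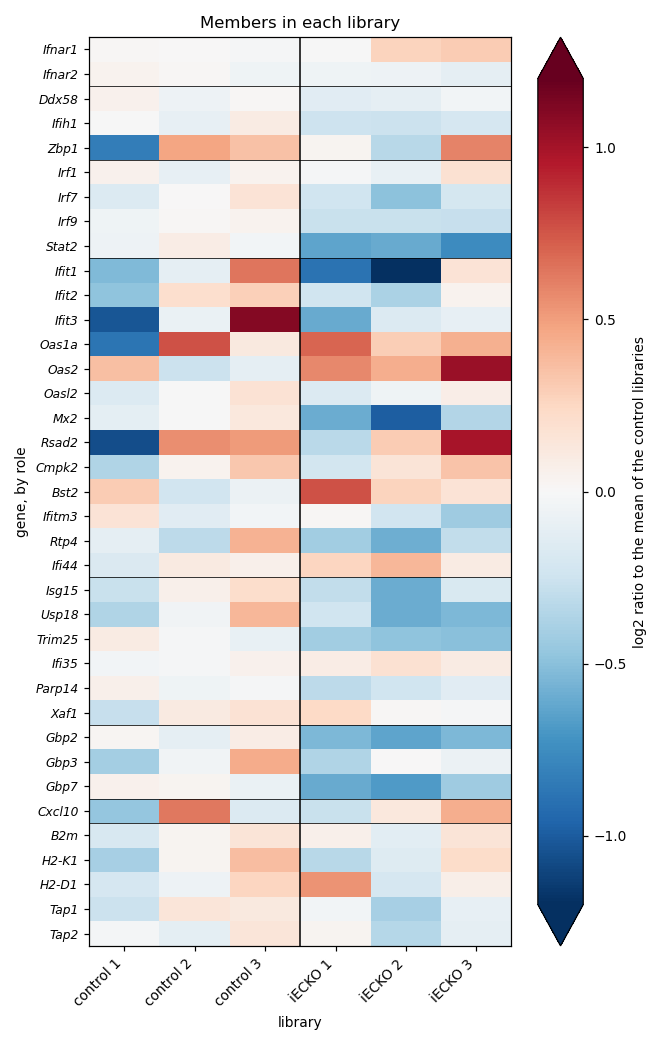
Log2 ratio of each tested member to its mean over the control libraries, for 3 control and 3 iECKO libraries (columns) and 37 genes (rows, separated by role); red is above and blue below the control mean. *Stat2*, *Trim25*, *Gbp2* and *Gbp7* are blue in all 3 iECKO columns, whereas the antiviral effectors differ within each genotype, with control 1 mostly blue and control 3 mostly red.

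Leukocytes express many of these genes as well, so their markers are given beside the members. Of 10 leukocyte markers 0 passed the test, and their summed level was 10540 to 15550 in controls and 9892 to 19560 in iECKO libraries. *Lcp1* was the largest part of every sum and stayed between 6444 and 7690. Other markers varied more among the 6 libraries, such as *Tyrobp*, from 79.9 to 477, and *Itgb2*, from 250 to 1082. The highest sum was in iECKO replicate 3, where 22 members were at the top of their genotype, and the lowest in iECKO replicate 2. In controls, however, the highest leukocyte sum was in replicate 1, where 23 members were lowest. *Ptprc*, the gene of the pan-leukocyte protein CD45, ranged from 996 to 1930 in controls and from 956 to 3106 in iECKO libraries. None of the leukocyte markers was at 0 in any library. Of 9 macrophage, 7 lymphocyte, 7 neutrophil and 6 dendritic cell markers tested, 0 passed, and 1 neutrophil marker had an unadjusted P value below 0.05. Macrophage markers summed to 3724 to 5479 in controls and 1806 to 7006 in iECKO libraries. The lymphocyte markers *Klrd1* and *Ncr1*, the neutrophil markers *Ly6g* and *Cxcr2* and the dendritic cell marker *Cd209a* were listed at 0 in at least 1 library. Epithelial markers summed to 29200, 25870 and 70120 in controls and 39130, 32060 and 32490 in iECKO libraries, so that they were highest in control replicate 3, where 20 members were the highest of the controls. Of 10 epithelial markers 1 rose, *Scgb1a1* (log2 fold change 1.75, limma adjusted P = 0.0408). The part of leukocytes and epithelial cells in the levels of the members was not tested.

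Of 9 fibroblast markers tested 7 fell, with a median log2 fold change of -1.50 over the 9, and of 10 mural and smooth muscle markers 8 fell (-1.52). The members that fell did so by less, between -0.46 and -0.66. In control replicate 1, which had the lowest fibroblast sum of the controls (45980, against 78100 and 68240 in replicates 2 and 3), *Trim25* and *Gbp7* were higher than in the other controls, *Stat2* was lower than in them, and *Gbp2* lay between them. Of the other pathway genes that fell, *Iigp1*, *Tgtp2* and *Igtp* were lowest among the controls in replicate 1. *Irgm2*, *Cd1d1* and *Irf2bpl* were highest there, and *Gbp4*, *Ifi27* and *Fcgrt* lay between the other controls. The part of these cells in the fall of the members was not tested. Of 15 endothelial markers 1 fell, the receptor gene *Tek* (log2 fold change -0.53, limma adjusted P = 0.0292).

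The pathway around the members was described with 173 further genes, of which 141 were tested. Of these 9 fell and 2 rose, 7.80% in all against 8.25% of all genes, and the median log2 fold change was -0.0037. Of 21 interferon ligand genes, 16 were listed at 0 in all 6 libraries and 0 could be tested, and the highest value was 12.9, of *Ifnz* in control replicate 2. Of 15 genes for receptors and the JAK-STAT relay 0 passed, and 1 had an unadjusted P value below 0.05. The kinase genes *Jak1* and *Tyk2* had log2 fold changes of 0.01 and -0.14, and the gamma receptor genes *Ifngr1* and *Ifngr2* of 0.00 and 0.02, with limma adjusted P values between 0.485 and 0.992. The sign of *Jak1*, *Ifngr1* and *Ifngr2* turned when single libraries were left out.

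Interferon-stimulated genes outside the list moved in both directions. Of 59 tested, 6 fell and 1 rose, 11.9% in all against 8.25% of all genes, and their median log2 fold change was -0.11. The 6 that fell were *Iigp1*, *Tgtp2*, *Gbp4*, *Igtp*, *Irgm2* and *Ifi27*, of which all but *Ifi27* encode GTPases. Of 13 immunity-related GTPase and guanylate-binding protein genes tested in the list, grouped after their values were seen, 5 fell and 8 did not pass. The 8 were *Irgm1* (limma adjusted P = 0.232), *Ifi47* (0.255), *Tgtp1* (0.805), *Gbp5* (0.501), *Gbp6* (0.529), *Gbp8* (0.415), *Gbp9* (0.0756) and *Gbp10* (0.8), at log2 fold changes from -0.53 (*Ifi47*) to 0.76 (*Gbp10*). *Iigp1* was at 4324, 6681 and 6822 in controls and 1888, 2559.6 and 3039.8 in iECKO libraries (log2 fold change -1.25, SE 0.22, limma adjusted P = 0.0178). *Tgtp2* was at 2129, 2719 and 2530.0 against 1395, 1189 and 999.6 (log2 fold change -1.05, SE 0.14, limma adjusted P = 0.0103). *Gbp4* was at 3979, 3107 and 4188 against 2263, 1871 and 2003 (log2 fold change -0.87, SE 0.13, limma adjusted P = 0.0116). In each of the 3 genes every iECKO library lay below every control.

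*Igtp* had a log2 fold change of -0.78 (SE 0.17, limma adjusted P = 0.0302), *Ifi27* of -0.74 (SE 0.18, 0.0429) and *Irgm2* of -0.49 (SE 0.090, 0.0201). *Igtp* and *Irgm2* share 162 exon bases on 1 strand. *Tgtp2* has a near-identical copy, *Tgtp1*, whose values of 399, 1277 and 1253 in controls and 288, 780.3 and 1453 in iECKO libraries overlapped, so that reads could be split between them. *Slfn9*, of the Schlafen family, rose and was at 664, 1413 and 655 in controls and 1946, 2708 and 2332 in iECKO libraries (log2 fold change 1.44, SE 0.29, limma adjusted P = 0.0258). When each library was left out in turn, the call was kept in 6 of 6 for *Tgtp2*, 5 for *Gbp4*, 4 for *Iigp1*, 3 for *Irgm2*, 2 for *Igtp*, 2 for *Slfn9* and 1 for *Ifi27*.

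Of 22 genes of nucleic acid sensing, *Mb21d1*, which encodes the DNA sensor cGAS, rose. It was at 287, 359 and 238 in controls and 546, 748 and 685 in iECKO libraries, without overlap (log2 fold change 1.17, SE 0.19, limma adjusted P = 0.0138), and it kept its call in 4 of 6 fits with a library left out. Of 7 other interferon regulatory factor genes, *Irf2bpl*, named for its likeness to the IRF2 binding proteins, fell by 0.58 on the log2 scale (SE 0.10, limma adjusted P = 0.0194), from 9956, 8771 and 7751 to 6215, 5769.6 and 5642.

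Genes of the antigen presentation machinery outside the list were mostly without a call. Of 5 immunoproteasome, 6 peptide loading and 11 MHC class II genes tested, 0 passed, and 2 of peptide loading, both higher, had an unadjusted P value below 0.05. Of 16 other class I heavy chain genes tested, 2 fell (12.5%, against 4.97% of all genes). They are *Cd1d1*, which presents lipids to natural killer T cells (log2 fold change -0.65, SE 0.12, limma adjusted P = 0.0212), and *Fcgrt*, the heavy chain of the neonatal Fc receptor for immunoglobulin G (-0.47, SE 0.12, 0.048). *Cd1d1* was at 1349, 1117 and 1259 in controls and 862, 828 and 692 in iECKO libraries, and *Fcgrt* at 1772, 1766 and 1810.1 against 1508, 1109 and 1280.3. Neither protein presents peptides to conventional T cells. *Cd1d1* kept its call in 3 and *Fcgrt* in 1 of 6 fits with a library left out. Under the 3 other scalings *Fcgrt* lost its call (limma adjusted P = 0.0509 to 0.0691). Over all 18 alternative fits *Fcgrt* was called in 6 and *Cd1d1* in 13. Of the 16 heavy chain genes, 7 had an unadjusted P value below 0.05 (6 lower and 1 higher), against 23.9% of all genes. *H2-T9* and *H2-T22*, named after their values were seen, are near-identical copies. *H2-T9* was listed at 0 in 5 libraries and at 354 in iECKO replicate 2, and *H2-T22* was at 1159, 1229 and 1369.6 in controls and 358, 537 and 1184 in iECKO libraries.

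**Figure D4:**
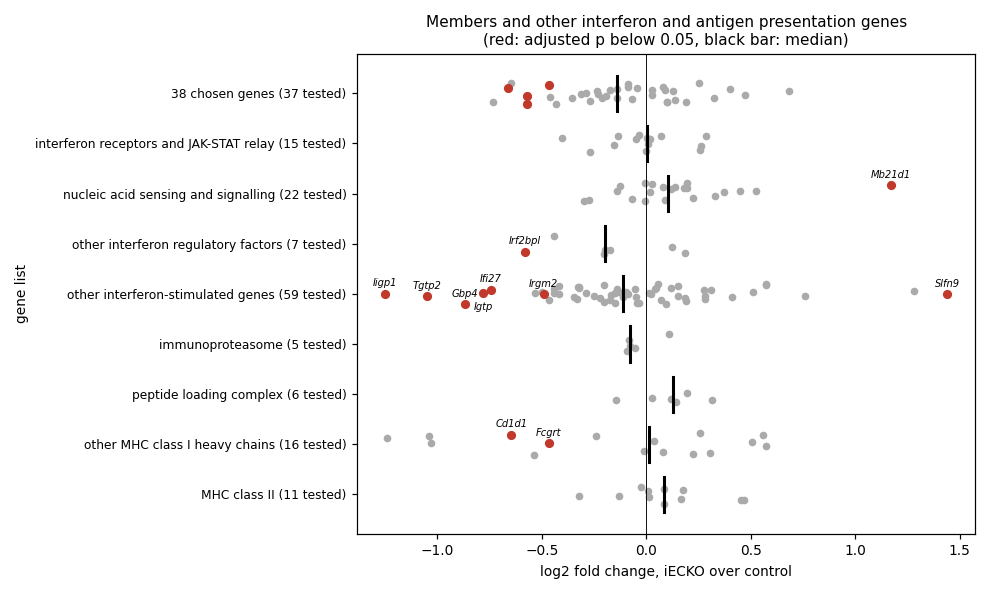
Log2 fold change, iECKO over control, of the tested members (top row) and of the tested genes in 8 lists of other pathway genes; each point is a gene, red points had a limma adjusted P value below 0.05, black bars are medians, and the vertical position within a row has no meaning. Red points lie left of 0 except *Mb21d1* and *Slfn9*, and the medians of all lists lie between -0.20 and 0.13.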

How the data were processed

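RNA-Seq libraries of iLECs from 3 control and 3 iECKO samples, grouped by the genotype in the labels, were prepared with a kit that does not keep strand. The authors aligned the reads to mm10 and deposited 1 table of normalized signal per gene symbol. The labels call these deposited values raw counts, but they are not whole numbers, and only 64.4% to 80.3% of low values per library were whole multiples of the smallest step (within 0.05). Reads were therefore not recovered, and no count model was run. The planned limma fit on log2 values was used. Libraries with more reads are more precise: relative to the shallowest, depth inferred from the steps was 1.00 to 1.03 in controls and 1.25 to 1.55 in iECKO libraries.

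Values were analyzed as log2(value + 1) for genes with at least 10 in at least 3 libraries, with limma 3.58.1 (mean-variance trend, no covariate) in R 4.3.3 and Benjamini-Hochberg adjustment over all genes tested. The fit was tested on simulated data. Coordinates and exon lengths are from GENCODE M21 (GRCm38), promoters from RefSeq (GRCm38.p6). Members and lists were chosen with earlier results of these data known. Values in every library are given for members with an unadjusted P value below 0.05 or without overlap of the genotypes, for receptors and MHC class I genes, and for the 3 most variable and the 3 most abundant per kb. Of other pathway genes, those with an adjusted P value below 0.05 are named, with *Jak1*, *Tyk2*, *Ifngr1* and *Ifngr2*, and 1 further gene of that rule is not reported here. Alternatives were other scalings, filters, pseudocounts, variance models and thresholds, covariates for the replicate number and for *Xist*, a subset by *Xist*, and each library left out.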

Additional observations from a re-analysis of the deposited data

How the results depend on the processing

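*Stat2*, *Trim25*, *Gbp2* and *Gbp7* were the members called lower under 3 other scalings, 2 other filters, 2 other pseudocounts, a robust prior and an *Xist* covariate, and 0 members were called higher there. Without the mean-variance trend 1 member was called lower (*Stat2*), with 1 other pathway gene lower and 0 higher. In the 4 libraries with *Xist* over 1000, members called lower and other pathway genes called lower and higher were all 0, and the median of the members turned to 0.012. The signs of *Ifit3* (0.20), *H2-K1* (0.13), *Tap2* (0.034) and *Jak1* (-0.11) turned as well. At an adjusted P value below 0.1, 15 other pathway genes were called lower. Under median scaling *Jak1* and *Ifngr1* turned to -0.0084 and -0.012. Genes called of all were 304 without the trend, 767 with the *Xist* covariate, 1 in the 4 libraries, 1987 at 0.1 and 204 to 989 with a library left out, against 1193. Where the construction (fewer libraries, another threshold) does not show it, the cause was not tested.

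With a library left out, members called lower were 1 to 4 and 0 higher, other pathway genes lower 2 to 10 and higher 0 to 2, and the median of the members -0.21 to -0.05. Members called lower were 1 without iECKO replicate 2 and 2 without iECKO replicate 3. Log2 fold changes that turned sign ranged from -0.80 to 0.26 (*Ifit3*), -0.21 to 0.65 (*Rsad2*), -0.066 to 0.11 (*B2m*), -0.29 to 0.10 (*H2-K1*), -0.063 to 0.30 (*H2-D1*), -0.070 to 0.095 (*Jak1*), -0.061 to 0.065 (*Ifngr1*) and -0.068 to 0.13 (*Ifngr2*).

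With the replicate number as a covariate (replicate block), the same 4 members were called lower and 1 was called higher, *Bst2* (adjusted P = 0.0434), with 1508 genes called of all. Deviations from the genotype means of libraries that share a number correlated by 0.252, 0.114 and 0.0782. The labels do not tie the numbers to a litter, batch or day, so they were not taken as pairs. Every library except control replicate 3 correlated best with the library of its own number. Control replicate 3 correlated best with iECKO replicate 2 (0.1). Whether the numbers mark pairs was not tested.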
